A study of Mus musculus with 4 samples.

Results

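The transcripts of 46 imprinted genes were followed in fetal oocytes of the mouse, out of 55401 gene identifiers in each count file. The genes were chosen by symbol, from the imprinted genes known in the mouse, and all 46 were found. By their usual behaviour in somatic tissue, 27 are expressed from the paternal copy, 10 from the maternal copy, and for 9 the active copy depends on the tissue or the isoform (Ube3a, Grb10, Ddc, Gnas and Blcap among them). The mothers were ICR mice that ate normal chow (ND) or a diet rich in fat (HFD) for 4 months before mating with ND males. Germ cells were sorted by the surface antigen SSEA-1 from the ovaries of their E18.5 fetuses, and cells of several fetuses were pooled for each library. There were 2 libraries from fetuses of ND mothers (ND replicates 1 and 2) and 2 from fetuses of HFD mothers (HFD replicates 1 and 2), amplified with SMART-Seq2, a protocol for polyadenylated RNA of few cells. The labels call the cells primordial germ cells, whereas the study calls them fetal oocytes.

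An imprinted gene is read from 1 parental copy. In most cases the copies differ in a DNA methylation mark, at the gene or nearby, that was set in the egg or the sperm. These marks are erased in primordial germ cells of the fetus, and in the female they are set again in growing oocytes after birth. Oocytes before birth are thus normally past erasure and before the new marks. The study reported that erasure of genome methylation was incomplete with HFD, and that methylation of Mest and Igf2r was abnormal. The counts carry no information on alleles. Paternally and maternally expressed are therefore names of gene classes here, and which copy was transcribed was not measured.

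In 5 genes, Mest, Phlda2, H19, Impact and Dlk1, the ND and HFD libraries did not overlap and both libraries of at least 1 diet were above background. With HFD higher, such genes made up 6.98% of the 43 imprinted genes tested (background 2.2% of all 19335 genes tested). With HFD lower they made up 4.65% (background 4.16%). The shares over all genes were not matched for detection. In at least 1 library 60.9% of the imprinted genes were above background, against 33.3% of protein-coding genes. Without the requirement to be above background, the shares were 16.3% against 13.9% with HFD higher and 18.6% against 13.4% with HFD lower. Mest and Phlda2 had their reads in the ND libraries, and H19, Impact and Dlk1 had higher levels in both HFD libraries. At the adjusted threshold of edgeR's quasi-likelihood test 0 of these genes were called, as were 0 genes in the whole comparison. A further 17 imprinted genes were above background in a single library of the 4.

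The promoters shown first are those of Mest, Igf2r and Phlda2 and of the neighbours Mkrn3 and Peg12. The study examined Mest and Igf2r by bisulfite sequencing, in regions that were not matched to these promoters here. Phlda2 had its reads in the ND libraries, and Mkrn3 and Peg12 were high in the same single library. Each is given 5′ to 3′ on the strand of its gene, from 250 bases before to 50 bases after a RefSeq start site (GRCm38.p6), with every CpG, the dinucleotide that carries the methylation mark, in capitals.
Mest, promoter 1, chr6:30733256-30733555, plus strand: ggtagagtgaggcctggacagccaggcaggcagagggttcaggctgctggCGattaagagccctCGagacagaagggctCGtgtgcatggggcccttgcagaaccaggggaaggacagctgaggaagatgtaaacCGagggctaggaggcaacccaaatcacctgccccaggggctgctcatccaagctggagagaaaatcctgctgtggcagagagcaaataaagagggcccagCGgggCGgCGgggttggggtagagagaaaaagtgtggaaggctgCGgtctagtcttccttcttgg
Mest, promoter 2, chr6:30737800-30738099, plus strand: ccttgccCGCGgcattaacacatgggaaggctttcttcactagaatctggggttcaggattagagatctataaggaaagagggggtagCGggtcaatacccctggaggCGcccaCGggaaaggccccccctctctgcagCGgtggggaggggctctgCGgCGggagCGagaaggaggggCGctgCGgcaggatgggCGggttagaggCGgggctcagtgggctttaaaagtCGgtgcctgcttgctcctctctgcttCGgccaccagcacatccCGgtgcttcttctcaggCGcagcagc
Igf2r, chr17:12769657-12769956, minus strand: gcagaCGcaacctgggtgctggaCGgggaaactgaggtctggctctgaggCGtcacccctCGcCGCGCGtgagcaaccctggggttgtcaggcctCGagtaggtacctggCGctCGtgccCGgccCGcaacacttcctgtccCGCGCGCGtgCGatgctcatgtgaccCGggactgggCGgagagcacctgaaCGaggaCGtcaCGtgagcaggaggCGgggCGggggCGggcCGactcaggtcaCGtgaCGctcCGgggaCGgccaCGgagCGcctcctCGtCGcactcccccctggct
Phlda2, chr7:143502475-143502774, minus strand: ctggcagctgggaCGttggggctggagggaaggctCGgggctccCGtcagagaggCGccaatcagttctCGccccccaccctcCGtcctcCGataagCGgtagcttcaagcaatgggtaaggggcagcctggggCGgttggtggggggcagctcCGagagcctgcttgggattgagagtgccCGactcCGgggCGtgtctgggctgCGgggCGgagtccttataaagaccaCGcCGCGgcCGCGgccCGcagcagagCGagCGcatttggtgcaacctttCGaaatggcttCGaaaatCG
Mkrn3, chr7:62420104-62420403, minus strand: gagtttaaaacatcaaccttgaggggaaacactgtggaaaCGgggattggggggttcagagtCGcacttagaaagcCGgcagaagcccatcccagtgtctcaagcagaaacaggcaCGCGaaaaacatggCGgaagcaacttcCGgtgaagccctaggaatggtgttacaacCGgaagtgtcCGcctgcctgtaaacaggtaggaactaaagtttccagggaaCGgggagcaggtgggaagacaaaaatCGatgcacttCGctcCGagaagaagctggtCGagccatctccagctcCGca
Peg12, chr7:62464461-62464760, minus strand: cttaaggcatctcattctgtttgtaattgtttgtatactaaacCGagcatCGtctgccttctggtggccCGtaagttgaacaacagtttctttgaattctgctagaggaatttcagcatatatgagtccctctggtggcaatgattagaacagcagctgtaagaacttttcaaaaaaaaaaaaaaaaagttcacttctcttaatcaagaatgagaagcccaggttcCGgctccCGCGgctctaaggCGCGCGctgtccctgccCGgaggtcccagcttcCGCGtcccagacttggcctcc

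The promoter of Igf2r held 34 CpGs and that of Phlda2 held 26, against 15 for Mkrn3 and 12 for Peg12. Promoters 1 and 2 of Mest, which serve different transcripts of the gene, held 8 and 17. Over 37 of the 46 genes, for which the RefSeq table held 55 promoters, the number of CpGs ran from 0 to 45 with a median of 15.0, and the median over all 32851 promoters of the table was 7.0. The letters TGCCGC, the motif that the imprint guardian ZFP57 reads when its CpG is methylated, were searched on both strands. They stood 2 times in promoter 2 of Mest and 0 times in the other 5 promoters shown. They stood at least 1 time in 23.6% of the 55 promoters and in 11.6% of all promoters of this length, where a match is a run of letters and not a measured site. The motif holds a CpG, and the shares were not adjusted for the higher CpG number of these promoters. Promoters 2 and 3 of Mest overlap, the latter not shown, and were counted separately.

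Several of the imprinted genes also host microRNAs, Mirg, Rian and Meg3 among them, and those of H19 and Mest are shown here. The hairpin of miR-675 lies in an exon of H19, and that of miR-335 lies within Mest. Their mature sequences are shown with the seed, bases 2 to 8, in capitals, because the ND and HFD libraries did not overlap in either host.
mmu-miR-675-5p: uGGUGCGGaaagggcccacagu
mmu-miR-675-3p: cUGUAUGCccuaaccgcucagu
mmu-miR-335-5p: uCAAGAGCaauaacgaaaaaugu
mmu-miR-335-3p: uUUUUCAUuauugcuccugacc

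The 4 seeds differ from each other. Mature microRNAs carry no poly(A) tail, and SMART-Seq2 does not measure them. The identifier of the miR-675 hairpin had 0 counts in every library and that of miR-335 had 0, 0, 1 and 5, so the host genes were followed by their own exons.

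The libraries held 8223255 and 7815015 counted reads for ND replicates 1 and 2 and 6456825 and 5723605 for HFD replicates 1 and 2. Values are given below in this order. CPM is the count divided by the library total and scaled to a common total, and 3 counts corresponded to 0.365, 0.384, 0.465 and 0.524 CPM, limits that cover counting error only because the reads carry no molecular identifiers. Olfactory receptor genes, whose main site of expression is the nose, served as a measure of background. A gene was taken as above background in a library where it had over 3 counts and more reads per kilobase of exon than the 99th percentile of 1407 olfactory receptor genes, that is 11.1, 10.6, 9.08 and 14.6 reads per kilobase. Between 74.6% and 91.7% of the olfactory receptor genes had at least 1 read, so a low count is no sign of expression in these libraries. Of 16 germ cell markers, 8, 14, 12 and 9 were above background. The RNA-binding protein gene Dazl had 14247, 29465, 2926 and 49 counts and was at background in HFD replicate 2, the synaptonemal complex gene Sycp1 had 36, 48, 9038 and 7978, and the oocyte transcription factor gene Nobox had 14, 50, 8252 and 3246. Markers of ovarian stroma summed to 2871, 92.1, 2647 and 7736 CPM, with 7, 2, 6 and 7 of 14 above background and none of the leading collagen genes at 0. Blood markers summed to 1976, 4.73, 4.49 and 25.5 CPM. In pooled cells, fewer cells of a type and less RNA per cell cannot be told apart.

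Of the 46 imprinted genes, 15 were above background in ND replicate 1, 15 in ND replicate 2, 8 in HFD replicate 1 and 9 in HFD replicate 2. In all, 28 genes were above background in at least 1 library, or 60.9%, against 33.3% of 21897 protein-coding genes. H19, Dlk1 and Impact were above background in all 4 libraries, 2 genes in 3 libraries, 6 in 2 libraries and 17 in 1 library. The share of detected genes that were found in exactly 1 library was 60.7%, against 56.9% for protein-coding genes. This share depended on the limit. At the lower limit of the median plus 3 median absolute deviations of the olfactory receptor genes, 11 imprinted genes were found in exactly 1 library, 28.9% of those detected, against 36.4% for protein-coding genes. Of the paternally expressed genes 55.6% were above background in some library, and of the maternally expressed genes 80%.

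**Figure D1:**
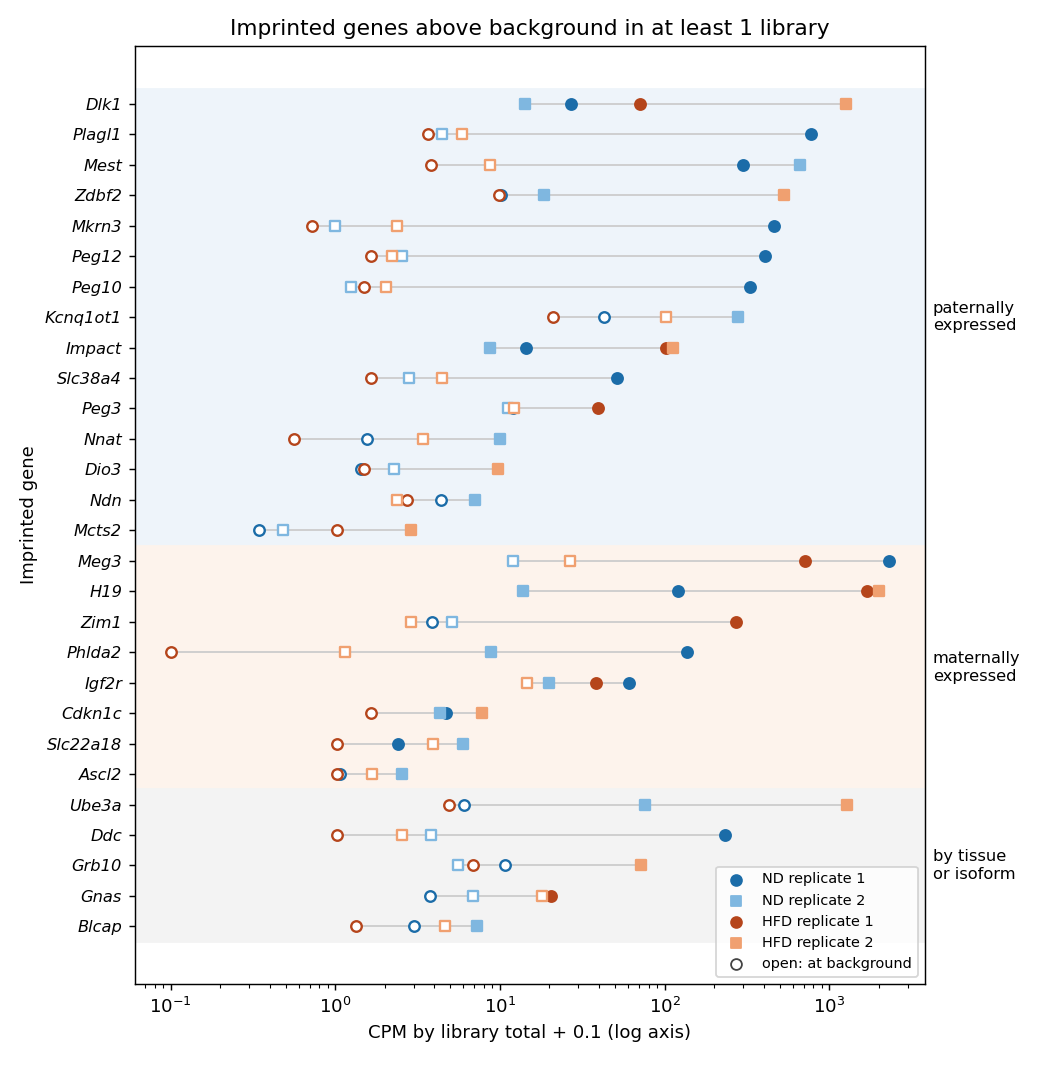
CPM in each library (log axis, 0.1 added) for the 28 imprinted genes above background in at least 1 of the 4 libraries, one gene a line, by class. Filled symbols are above background and open symbols at background, blue for ND and orange for HFD. H19, Dlk1 and Impact are filled in all 4 libraries, and 17 genes have a single filled symbol.

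Mest, a paternally expressed gene for a hydrolase of fetal mesoderm, had 2476 and 5181 counts with ND, and 24 and 49 with HFD. Both ND libraries lay far above both HFD libraries, and the groups did not overlap. By reads per kilobase it stood above 96.4% and 98.3% of protein-coding genes in the ND libraries and above 83% and 84.5% in the HFD libraries, where it was at background. The mean level was 482 ± 256 CPM (SD, n = 2) in ND and 6.14 ± 3.43 CPM (SD, n = 2) in HFD, a ratio of 78.5. The fitted log2 fold change was -6.49 (SE 1.90), with an adjusted p of 0.406 in edgeR's quasi-likelihood test, and it ranged from -7.06 to -5.79 when single libraries were left out. Mest shares 23.1% of its exon bases with Copg2 on the opposite strand, and Copg2, a coat protein gene, had 48, 42, 18 and 47 counts. With the shared bases left out of its length, which was tried after seeing the counts, Mest was above background in 3 libraries instead of 2.

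Phlda2, a maternally expressed gene for a pleckstrin homology protein that restrains placental growth, had 1116 and 68 counts with ND, and 0 and 6 with HFD. Both ND libraries were above background and both HFD libraries were not, and the 0 of HFD replicate 1 allows up to 0.465 CPM. The means were 72.2 ± 89.8 CPM (SD, n = 2) in ND and 0.524 ± 0.741 CPM (SD, n = 2) in HFD. The fitted log2 fold change was -7.53 (SE 2.96, adjusted p = 0.406 in edgeR's quasi-likelihood test). Its size depended on 1 library, since it was -4.70 without ND replicate 1. Without HFD replicate 2 it was -11.91, a value set by the prior count of the fit because the remaining HFD library had 0 counts. Cdkn1c, a maternally expressed cell cycle inhibitor that starts 42.1 kb from Phlda2, had 38, 33, 10 and 44 counts and a log2 fold change of -0.29 (SE 0.54), and its groups overlapped.

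H19, a maternally expressed long non-coding RNA that is abundant in fetal tissue, had 988 and 108 counts with ND, and 10959 and 11431 with HFD. By CPM of library totals, the HFD libraries lay close to each other and above both ND libraries, which differed from each other by a larger ratio. With the TMM factors of the fit, 0.692 and 1.51 for HFD replicates 1 and 2, the HFD libraries lay further apart. The means were 67 ± 75.2 CPM (SD, n = 2) in ND and 1847 ± 212 CPM (SD, n = 2) in HFD, a ratio of 27.6. The fitted log2 fold change was 4.83 (SE 2.34, adjusted p = 0.416 in edgeR's quasi-likelihood test), and 3.97 to 6.94 when single libraries were left out. By reads per kilobase H19 stood above 99.7% and 99.8% of protein-coding genes in the HFD libraries and above 95.7% and 94.9% in the ND libraries.

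Igf2, the fetal growth factor gene that starts 88.7 kb from H19 and shares its enhancers in somatic tissue, had 24, 5, 2 and 22 counts and was at background in all 4 libraries. Its groups overlapped. Of its exon bases 64.5% are shared with other genes, most of them with Gm49394 on the same strand, and Gm49394 had 0 counts in every library. How the counting treated reads in shared bases is not given in the sources used here, so the Igf2 values are uncertain. Its full counts were also divided by its unshared 2.03 kb alone, which was tried after seeing the counts. This gave 11.8, 2.46, 0.986 and 10.8 reads per kilobase, above the background limit in ND replicate 1. Any reads in shared bases were not taken out, so these are upper values for the unshared stretch. Igf2r, the maternally expressed receptor that clears IGF2, had 497, 155, 246 and 83 counts and a log2 fold change of -0.32 (SE 1.26). Its groups overlapped, and the sign turned without ND replicate 1 (0.57) and without HFD replicate 2 (0.45). Airn, the antisense RNA that silences Igf2r on the paternal copy, had 31, 20, 6 and 13 counts, all at background.

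Dlk1 encodes a transmembrane protein of the Notch ligand type that is paternally expressed in fetal tissue. It had 220 and 110 counts with ND, and 460 and 7215 with HFD. Both HFD libraries were above both ND libraries, and HFD replicate 2 stood far above the other three. The means were 20.4 ± 8.96 CPM (SD, n = 2) in ND and 666 ± 841 CPM (SD, n = 2) in HFD. The fitted log2 fold change was 4.52 (SE 1.98, adjusted p = 0.406 in edgeR's quasi-likelihood test), and 2.32 to 5.24 when single libraries were left out. Meg3, the maternally expressed non-coding RNA that starts 88.2 kb from Dlk1, had 18975, 93, 4601 and 151 counts. Its high libraries were replicate 1 of each diet, the groups overlapped, and its log2 fold change of -1.13 (SE 2.86) became 5.33 without ND replicate 1. Other genes of this cluster were near background. Rian and Mirg, non-coding RNAs downstream of Meg3, were at background in all libraries, and Dio3, a deiodinase of thyroid hormone, had 11, 17, 9 and 55 counts and was above background in HFD replicate 2.

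Impact, a paternally expressed regulator of the kinase GCN2, had 118 and 67 counts with ND, and 661 and 643 with HFD. It was the one paternally expressed gene besides Dlk1 that was above background in all 4 libraries. Its HFD libraries lay close together by CPM of library totals, but further apart with the TMM factors of the fit (0.692 and 1.51). The means were 11.5 ± 4.08 CPM (SD, n = 2) in ND and 107 ± 7.05 CPM (SD, n = 2) in HFD, a ratio of 9.37. The fitted log2 fold change was 3.26 (SE 1.22, adjusted p = 0.406 in edgeR's quasi-likelihood test), and 2.58 to 3.67 when single libraries were left out. Gnas, which encodes the stimulatory G protein alpha subunit, had 30, 53, 131 and 102 counts with no overlap between diets, though only HFD replicate 1 was above background. Its log2 fold change was 1.92 (SE 0.82), and 1.02 to 2.49 when single libraries were left out. Gnas shares exon bases with Nespas and Gm20721 on the opposite strand, and the strand setting of the counting is not given in the sources used here.

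The stromal markers moved with part of this pattern. They were high in HFD replicate 2 and low in ND replicate 2, as H19 and Dlk1 were, but ND replicate 1 had 2871 CPM of stromal markers with 120 CPM of H19 and 26.8 of Dlk1, and HFD replicate 1 had 2647 with 1697 and 71.2. Among the markers, Col3a1 had 268, 93, 23 and 16987 counts, Col1a1 had 11776, 98, 6061 and 15691, and Postn had 24, 22, 17 and 7281. These are the 3 markers with the highest CPM, and others, named after their values were seen, ran differently: Col1a2 had 2295, 161, 4197 and 134 counts, Dcn had 2656, 36, 8 and 17, and Lum had 4916, 9, 6 and 7. Summed pregranulosa markers were 47.3, 424, 29.3 and 2101 CPM, with 0, 4, 0 and 2 of 14 above background. Summed endothelial markers were 25.7, 74.9, 715 and 40.7 CPM, and macrophage markers stayed between 7.04 and 30.2 CPM. The part of other cell types in the levels of H19 and Dlk1 was not tested.

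**Figure D2:**
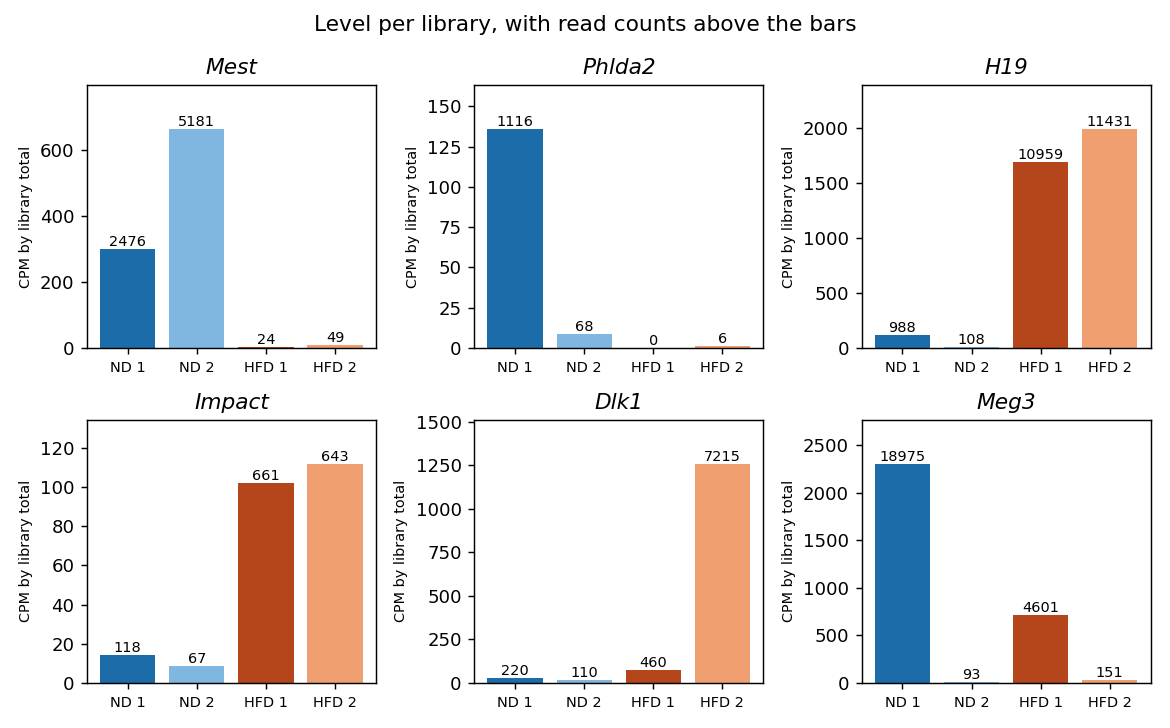
CPM by library total in each of the 4 libraries for Mest, Phlda2, H19, Impact, Dlk1 and Meg3, with the read count above each bar; each panel has its own axis from 0. Mest and Phlda2 stand in the ND libraries and H19 and Impact in the HFD libraries, Dlk1 is led by HFD replicate 2 with 7215 counts, and Meg3 is high in replicate 1 of both diets.

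A group of 6 genes was above background in ND replicate 1 alone. Mkrn3, a makorin ubiquitin ligase, had 3798 counts there and 7, 4 and 13 in the others. Peg12, a gene of the Frat family that starts 44.4 kb from Mkrn3 in the Prader-Willi region of chromosome 7, had 3338 counts there and 19, 10 and 12 in the others. The remaining paternally expressed genes of this group were Peg10, a retrotransposon-derived gene needed for the placenta, with 2705, 9, 9 and 11, Plagl1, a zinc finger transcription factor, with 6366, 34, 23 and 33, and Slc38a4, an amino acid transporter, with 419, 21, 10 and 25. Ddc, dopa decarboxylase, had 1921, 29, 6 and 14. ND replicate 1 held 85.6% to 99.2% of the summed CPM of each of these genes.

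The fitted log2 fold changes of these 6 genes depended on that library. That of Mkrn3 was -7.53 (SE 2.89) and became 0.26 without ND replicate 1, and that of Peg10 was -6.61 (SE 2.62) and became 0.35. Plagl1 went from -6.41 to -0.11, Peg12 from -6.78 to -0.57, Slc38a4 from -3.35 to -0.23 and Ddc from -6.28 to -1.47. ND replicate 1 was also the library with haemoglobin reads, 5879 of Hba-a1 and 7350 of Hbb-bs, while the other libraries had 0 to 3 of either. Of 8 blood markers, 3, 0, 0 and 2 were above background. The stromal markers Dcn, with 323 CPM in ND replicate 1 and 4.61, 1.24 and 2.97 CPM in the others, and Lum, with 598 CPM and then 1.15, 0.929 and 1.22, were high in ND replicate 1 alone as well. Other stromal markers ran differently. Col1a1 had 11776, 98, 6061 and 15691 counts, Col1a2 had 2295, 161, 4197 and 134, and Postn had 24, 22, 17 and 7281. The part of blood or stromal RNA in these values was not tested.

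Neighbours of Mkrn3 and Peg12 did not share their pattern. Ndn, a MAGE family gene, had 35, 54, 17 and 13 counts, above background in ND replicate 2 alone, and a log2 fold change of -1.12 (SE 0.64). Magel2 of the same family was at background in all 4 libraries. Snrpn, a splicing protein gene at the imprinting centre of the region, had 12, 15, 3 and 16 counts. It shares exon bases with Snurf, which had 0 counts in every library, so its values are uncertain in the same way as those of Igf2. Ube3a, the ubiquitin ligase of Angelman syndrome, had 49, 596, 31 and 7299 counts, and its log2 fold change of 3.31 (SE 2.65) became -2.64 without HFD replicate 2. Snhg14, which runs antisense to Ube3a, had 69, 84, 3056 and 85 counts, so that the highest library of Ube3a was not that of Snhg14.

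Further genes were above background in 1 or 2 libraries, some of them on few reads. Ascl2 had 11.7 reads per kilobase in ND replicate 2, where the limit was 10.6. Mcts2 had 17.5 in HFD replicate 2, where the limit was 14.6. In ND replicate 2 alone, Kcnq1ot1, a long non-coding RNA that silences its neighbours on the paternal copy, had 2174 counts against 351, 134 and 585 in ND replicate 1 and the HFD libraries, and its log2 fold change was -1.78 (SE 1.57). The brain-expressed gene Nnat had 12, 78, 3 and 19 counts, Blcap, which surrounds Nnat on the other strand, had 24, 56, 8 and 26, and Ascl2, a transcription factor of the trophoblast, had 8, 19, 6 and 9. In HFD replicate 1 alone, the zinc finger gene Zim1 had 1757 counts against 31, 39 and 16, and its log2 fold change of 5.44 (SE 2.51) became -1.38 without that library. Peg3, a zinc finger gene that starts 34 kb from Zim1, had 98, 87, 253 and 69 counts, with a log2 fold change of 1.45 (SE 1.13) that became -0.66 without HFD replicate 1. In HFD replicate 2 alone, Grb10, an adaptor that dampens insulin receptor signalling, had 410 counts against 87, 43 and 44 with a log2 fold change of 1.83 (SE 1.06), and Mcts2, a retrogene inside H13, had 2, 3, 6 and 16. Zdbf2, a zinc finger gene, had 83, 143, 63 and 3050 counts, above background in ND replicate 2 and HFD replicate 2, and its log2 fold change of 3.66 (SE 1.94) became -0.06 without HFD replicate 2. Slc22a18, a transporter gene, had 19, 46, 6 and 22 counts and was above background in both ND libraries, and its groups overlapped.

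The 18 genes at background in every library had 0 to 150 counts and 0 to 11.7 reads per kilobase. Besides Igf2, Snrpn, Airn, Magel2, Rian and Mirg these were Usp29, Sgce, Rtl1, Nespas, H13, Zrsr1, Peg13, Trappc9, Nap1l5, Inpp5f, Commd1 and Rasgrf1. At this background their expression was not detectable, which does not show that it was absent.

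Summed over the classes, the classes traded places from library to library. The 27 paternally expressed genes summed to 2475, 1056, 285 and 2128 CPM, the 10 maternally expressed genes to 2647, 92.8, 2733 and 2074, and the 9 remaining genes to 277, 124, 52.5 and 1420. Each class had overlapping groups. Of the sum over both main classes, paternally expressed genes took 48.3%, 91.9%, 9.43% and 50.6%, so that the highest and the lowest share came from replicate 2 of ND and replicate 1 of HFD, and replicate 1 of ND and replicate 2 of HFD lay next to each other. Per kilobase of exon the shares were 65.6%, 88.5%, 5.59% and 27.7%, and on that scale both ND libraries were above both HFD libraries. On that scale the leading 3 genes took 48.3% (Mkrn3, Peg12 and Meg3) and 78.7% (Mest, Phlda2 and H19) of the sum over all classes in the ND libraries. In the HFD libraries they took 92.9% (H19, Meg3 and Zim1) and 89.9% (H19, Dlk1 and Ube3a). The sums rested on few genes. By CPM the leading 3 genes took 65.6% in ND replicate 1 (Meg3, Plagl1 and Mkrn3), 79.9% in ND replicate 2 (Mest, Kcnq1ot1 and Ube3a), 87.4% in HFD replicate 1 (H19, Meg3 and Zim1) and 80.6% in HFD replicate 2 (H19, Ube3a and Dlk1).

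**Figure D3:**
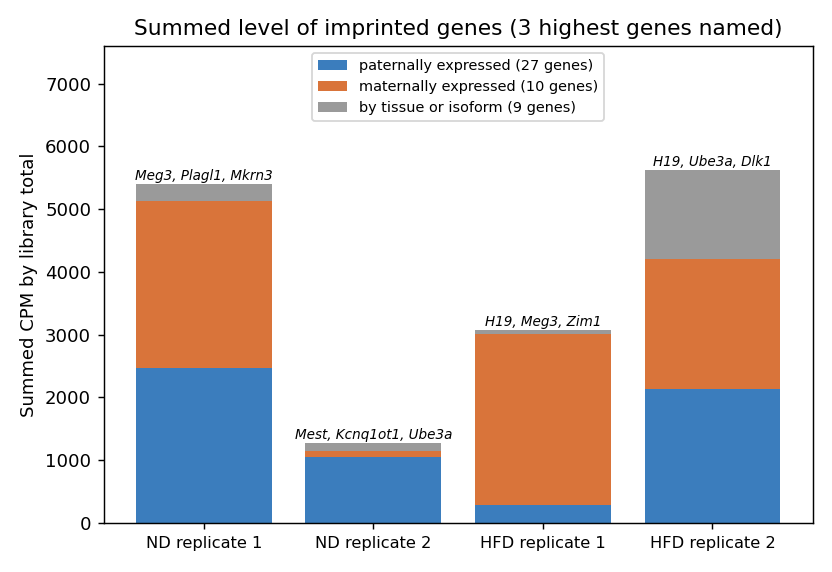
Summed CPM by library total of the 46 imprinted genes in each of the 4 libraries, stacked by class, with the 3 genes of highest CPM written above each bar. Paternally expressed genes take 91.9% of both main classes in ND replicate 2 and 9.43% in HFD replicate 1, and about equal parts with maternally expressed genes in the other libraries.

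The diets were compared over 19335 genes with edgeR's quasi-likelihood test, which included 43 of the imprinted genes (Nespas, Mcts2 and Nap1l5 had too few counts). At an adjusted p under 0.05 and a fold change over 1.5 it called 0 of the 43 (background 0%), and the smallest adjusted p over all genes was 0.406. At an unadjusted threshold of 0.05, 3 imprinted genes were higher in HFD (Impact, Mirg and Usp29, 6.98% against a background of 4.82% of all genes tested) and 8 were lower (Mest, Phlda2, Mkrn3, Peg10, Peg12, Ddc, Airn and Zrsr1, 18.6% against 6.41%). Of these 11, Mirg, Usp29, Airn and Zrsr1 were at background in every library. Their log2 fold changes were 1.15 (SE 0.46), 1.26 (SE 0.45), -1.16 (SE 0.38) and -1.29 (SE 0.51). The counts depended on single libraries. Without ND replicate 1, 3 of 45 imprinted genes tested were higher and 5 lower, or 6.67% and 11.1% against 9.01% and 7.36% of all genes tested. Without ND replicate 2 there were 1 and 8 of 45, or 2.22% and 17.8% against 3.95% and 7.13%. Without HFD replicate 1 there were 8 and 2 of 46, or 17.4% and 4.35% against 5.99% and 7.28%. Without HFD replicate 2 there were 5 and 1 of 43, or 11.6% and 2.33% against 8.64% and 6.74%. The excess of lower genes over the background was thus absent without either HFD library.

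By CPM, 7 of the 43 genes had both HFD libraries above both ND libraries, 16.3% against 13.9% of all genes tested, and 8 had both below, 18.6% against 13.4%. These shares lay near the background. DESeq2 was run on every gene and assigned an adjusted p to 6251 genes, 27 of them imprinted. It called 5 of these 27 higher in HFD, Dlk1, H19, Impact, Zdbf2 and Zim1, where it called 21.6% of the 6251 higher. It called 7 lower, Mest, Phlda2, Mkrn3, Peg10, Peg12, Plagl1 and Ddc, or 25.9% against 18.7% of the 6251 genes. Of these 7, Mkrn3, Peg10, Peg12, Plagl1 and Ddc were above background in ND replicate 1 alone. Of the 5 called higher, Zim1 was above background in HFD replicate 1 alone, and HFD replicate 2 held 93.3% of the summed CPM of Zdbf2. DESeq2's adjusted p was 3.78e-06 for Mest, 8.81e-05 for Phlda2, 0.00152 for H19, 0.00346 for Dlk1 and 0.0218 for Impact. The tools thus differed on every one of these 12 genes. With 2 libraries a diet, such values measure the spread between these libraries only, and the labels do not say whether they came from separate groups of mothers.

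**Figure D4:**
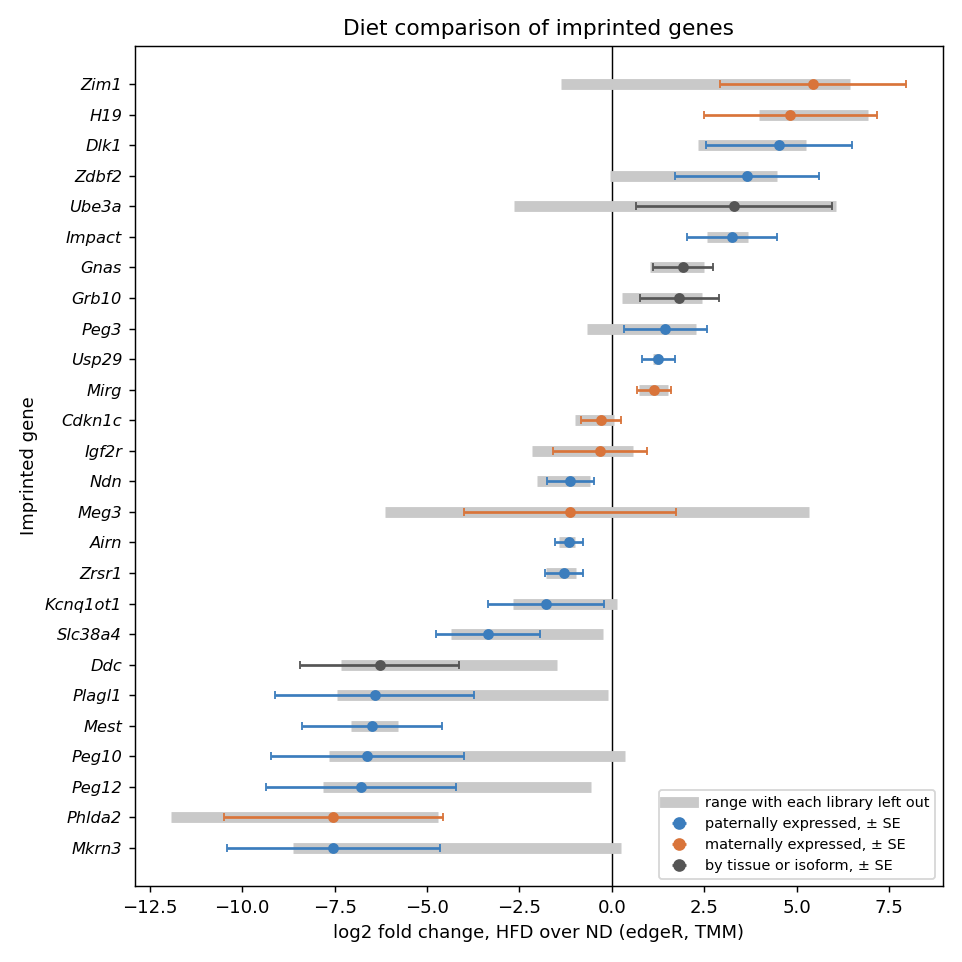
Fitted log2 fold change of HFD over ND (edgeR, TMM) with its standard error for 26 imprinted genes, coloured by class; grey bars span the values when single libraries were left out. The bars of Mest, Phlda2, H19, Impact and Dlk1 stay on one side of 0, and those of Meg3, Ube3a, Zim1, Mkrn3 and Peg10 are among the 10 that cross it.

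By class, 8 of 24 paternally expressed genes tested had a positive log2 fold change and 16 a negative one, with a median of -0.59. For the maternally expressed genes there were 3 and 7 with a median of -0.44, and for the 9 genes that depend on tissue or isoform 7 and 2 with a median of 0.35. Over all 19335 genes the median was 0.03, with 9951 positive and 9384 negative. Without ND replicate 1 the median of the paternally expressed genes was 0.07 and that of the maternally expressed genes 0.10, where the median of all genes was 0.24. Scaling by library size alone raised the median of all genes to 0.21, and the split of the 43 imprinted genes then was 21 positive and 22 negative in place of 18 and 25. With at least 10 counts required in every library, 27 imprinted genes remained, of which 15 were positive and 12 negative. The classes were not tested against each other.

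Genes that act on imprints or on DNA methylation were read from a list of 15, and 14 of them were found and tested. The list is mixed: besides genes that protect or set imprints it holds the dioxygenase genes Tet1 and Tet2. Of these, 9 had a positive and 5 a negative log2 fold change, and the median was 1.82. Their summed CPM was 1681, 187, 690 and 10521, highest in HFD replicate 2. Of the list edgeR called 0 genes, and at its unadjusted threshold 1 was higher and 1 was lower in HFD, 7.14% each against 4.82% and 6.41% of all genes. DESeq2 called 5 of the 12 genes to which it gave an adjusted p higher (Dnmt1, Kdm1b, Hells, Smchd1 and Ctcf) and 2 lower (Trim28 and Tet2), where its background was 21.6% and 18.7%. The higher one was Dnmt1, the maintenance methyltransferase, with 107, 210, 1691 and 17242 counts (log2 fold change 5.86, SE 2.27). The lower one was Trim28, the corepressor that ZFP57 recruits, with 1598, 187, 22 and 60 counts (log2 fold change -4.18, SE 1.51). Dppa3, which shields methylation in the zygote, was above background in all 4 libraries with 89, 336, 1238 and 269 counts. The de novo methyltransferase Dnmt3a was high in 1 library of each diet, with 9334, 109, 45 and 22103, and the histone demethylase Kdm1b was high in HFD replicate 2 alone, with 60, 43, 21 and 9236. Tet2, a dioxygenase that oxidizes methylcytosine, had 1908, 22, 16 and 86 counts. Hells, a remodeller needed for methylation, had 371, 184, 27 and 9111, and Smchd1, a silencing protein, had 71, 76, 40 and 1801.

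A further 41 genes that are imprinted in some tissue or species were also read. Of the 35 tested, 19 had a positive and 16 a negative log2 fold change with a median of 0.07, and 17 of the 41 were above background in at least 1 library. At edgeR's unadjusted threshold 2 were higher and 2 lower in HFD, 5.71% each against 4.82% and 6.41% of all genes, and edgeR called 0. Of the 16 genes to which DESeq2 gave an adjusted p, it called 4 higher (Ppp1r9a, Snhg14, Tssc4 and Gatm) and 2 lower (Smoc1 and Rb1). Its background was 21.6% higher and 18.7% lower. Chrac1, a histone fold gene, had 2262, 22230, 2631 and 19 counts, and Nap1l4, a histone chaperone, had 41, 1722, 1211 and 56. The matrix protein gene Smoc1 had 20, 14932, 6 and 32 counts, and Rb1, the retinoblastoma gene, had 38, 3554, 13 and 30, both high in ND replicate 2. Ppp1r9a had 71, 64, 3692 and 77, Tssc4 had 9, 2, 1211 and 13, and Gatm, an enzyme of creatine synthesis, had 14, 11, 1105 and 25, all high in HFD replicate 1.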

How the data were processed

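RNA of sorted E18.5 fetal germ cells was measured in 2 ND and 2 HFD libraries. Per the study, Trim Galore, HISAT2 (on mm10) and featureCounts were used by the authors for trimming, alignment and counting, and the deposited files hold raw counts per Ensembl gene, 1 library each. The annotation release, the strand setting and the handling of reads with several alignments or in shared exon bases are not given in the sources used here. Gene names, coordinates and lengths of exons were those of GENCODE M21, which listed 55141 of the 55401 identifiers, and promoters and microRNAs came from RefSeq (GRCm38.p6).

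The imprinted genes, their classes and the other gene lists were chosen with earlier results of these data known. The diets were compared in R 4.3.3 with edgeR 4.0.16 (TMM, filterByExpr, quasi-likelihood test with legacy FALSE, Benjamini-Hochberg adjustment over 19335 genes), at an adjusted p under 0.05 and a fold change over 1.5. TMM factors were 1.02, 0.94, 0.692 and 1.51. The script was tested on simulated data. Standard errors were obtained by dividing the absolute log2 fold change by the root of the F statistic. Alternatives were RLE normalization, library size only, other filters, DESeq2 1.42.0, limma-voom (limma 3.58.1), the legacy fit, a replicate block, each library left out, other background limits, and the 9 context-dependent genes put in the class of their usual allele. Counts of all libraries are given for genes above background in at least 1 library, and from other lists at most 8 genes with the highest CPM. The genes given a fold change, those named at background, Ctcf, and the order of the text were chosen after their values were seen. Bisulfite sequencing was not analysed here.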

Additional observations from a re-analysis of the deposited data

How the results depend on the processing

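DESeq2 on all genes called 1350 genes higher and 1168 lower in HFD, 5 and 7 of them imprinted, and edgeR's legacy fit called 12 and 22 genes, 0 of them imprinted. The other settings, the replicate block included, called 0. The cause was not tested. At the unadjusted threshold, 3 imprinted genes were higher and 8 lower. The number higher was 0 with library size only, limma-voom and the legacy fit, 5 with DESeq2, and 1 to 8 with each library left out. The number lower was 5 with library size only, 4 with at least 10 counts in every library, 2 with limma-voom, 3 with the legacy fit, 5 with the replicate block, and 1 to 8 with each library left out. The labels give the diets the same replicate numbers but no shared batch, and deviations of same-numbered libraries correlated at 0.01, so the numbers were not taken as pairs.

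With each library left out, the median log2 fold change ran from -0.92 to 0.07 for paternally expressed genes, from -1.04 to 0.10 for maternally expressed genes and from -0.15 to 0.54 for the 9 others. That of the maternally expressed genes was 0.24 with the 9 others in their usual class, and that of the 9 others was 0.68 with library size only. Above background in all 4 libraries were 6 genes at a limit of 10 CPM and 7 at the median plus 3 median absolute deviations, in place of 3, and at the latter limit 11 were found in exactly 1 library, in place of 17.

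Of 26 genes with a fold change in the text, 16 kept their direction without each library. The 10 others ran from -8.61 to 0.26 (Mkrn3), -7.65 to 0.35 (Peg10), -1.38 to 6.44 (Zim1), -6.13 to 5.33 (Meg3), -2.64 to 6.05 (Ube3a), -0.06 to 4.48 (Zdbf2), -2.17 to 0.57 (Igf2r), -0.66 to 2.27 (Peg3), -1.0 to 0.07 (Cdkn1c) and -2.68 to 0.14 (Kcnq1ot1). Library size only also turned Cdkn1c, to 0.07. Differences of genes at the background of olfactory receptor genes were not interpretable here, and what sets that background was not tested.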
